A study of Homo sapiens with 2 samples.

Results

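Heterotrimeric G proteins and the RGS proteins that switch them off were examined in a human cell line, C33-A, which was established from a cervical carcinoma, with or without a carbonic anhydrase IX transgene. One derivative, here called CA9 cells, was stably transfected with the full-length human CA 9 cDNA in pcDNA3.0, and the other, here called vector cells, carried the empty vector. CA9 encodes a cell-surface enzyme that turns carbon dioxide into bicarbonate. Both were grown with 10% fetal bovine serum, and day 4 after seeding was the time of RNA extraction. Labelled cRNA from 5 µg of total RNA was hybridised to Affymetrix arrays, 1 for each derivative. Whether either derivative is 1 clone or a mixture of clones is not in the labels.

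The genes were chosen by symbol. They comprise every probe set paired with a single symbol that names an RGS protein or a G-protein alpha, beta or gamma subunit, and the receptor gene GPR15 was added by name. This gave 150 of the 54675 probe sets on the array, for 57 of 19775 genes. Of the 57 genes, 16 encode alpha subunits, 5 beta subunits, 12 gamma subunits and 20 RGS proteins. Another 3 match by name alone, namely GNB1L, a protein with beta-subunit-like repeats, and RGS7BP and RGS9BP, membrane anchors of RGS proteins. Antisense and divergent transcripts named after alpha subunit genes were left out.

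A G-protein-coupled receptor that binds its ligand makes the alpha subunit exchange GDP for GTP, after which alpha and the beta-gamma dimer part and act on effectors such as adenylyl cyclase and phospholipase C beta. RGS proteins speed up GTP hydrolysis by alpha and so end the signal. Alpha subunits fall into the Gs, Gi/o, Gq/11 and G12/13 families, and RGS proteins into subfamilies known as R4, RZ, R7 and R12. GPR15 is a chemokine-receptor-like receptor best known for guiding T cells to the gut lining.

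The deposited values are intensities per probe set on a linear scale. Differences are on the log2 scale, CA9 cells minus vector cells, and the brightest probe set over both arrays stands for its gene. Genes whose brighter array exceeded 40.8 count as measurable, where that value is the median intensity over the non-control probe sets of both arrays, here termed the floor. Ranges over measurable probe sets take in those with 1 array below the floor, whose differences are not settled in size. Since neither derivative was replicated, no test was possible, the spread between cultures is unknown, and genes are singled out by size at 2-fold. Brightness depends on the probes, so intensities are compared between CA9 cells and vector cells for a given probe set and not between genes.

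Facts of the arrays that bear on every value are few. The medians of the arrays were 41.8 in CA9 cells and 40.1 in vector cells. The hybridisation spike-ins were higher on the CA9 array in 17 of 18 probe sets (median log2 difference 0.41). The poly-A spike-ins were higher on it in only 3 of 24 (median -0.20). The 3 probe sets of 18S ribosomal RNA were all lower on it, by -2.15 to -0.92 on the log2 scale. The part of these shifts in the differences below was not tested. Probe sets of a gene with both arrays above the floor scattered around their gene's mean difference with a pooled SD of 0.29 over 5428 genes, and with an SD of 0.27 over 22 of the genes described here. The probe sets of a gene share RNA and array and are no replicates. The CA9 transgene's own level was not analysed here. Of 7 epithelial markers, KRT8 had an intensity of 101 in CA9 cells and 68.3 in vector cells and KRT18 had 80.2 and 56.1. KRT14 had 64.4 in CA9 cells and 41.7 in vector cells and KRT19 had 44.7 and 39.4, whereas KRT5 went the other way, with 39.0 in CA9 cells and 48.0 in vector cells. CDH1 and EPCAM lay below the floor in both.

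Of the 57 genes, 41 were measurable and 4 of these (9.76%) lay at least 2-fold apart. GPR15 and RGS20 were lower in CA9 cells, and GNG8 and RGS11 were higher. By the same rule 1.35% of the 13823 measurable genes of the array were called, 0.651% as higher and 0.694% as lower. Of the 103 measurable probe sets, 2 were called as higher and 2 as lower, against 0.749% and 0.782% of the measurable single-gene probe sets of the array (1.53% together). GPR15 was added by name, and without it 3 of 40 measurable genes, or 7.5%, were called. GPR15 and RGS20 were known from earlier results to differ when the genes were chosen, so these shares describe the genes and are no evidence that the family stands apart. Most of the family had close values on both arrays. In 34 of the 41 measurable genes (82.9%) the difference was smaller than 0.5 on the log2 scale, against 84.7% of all measurable genes, and the median difference was 0.03 against -0.03. Over all 57 genes, measurable or not, the median was 0.04, against 0.00 over all genes of the array.

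**Figure D1:**
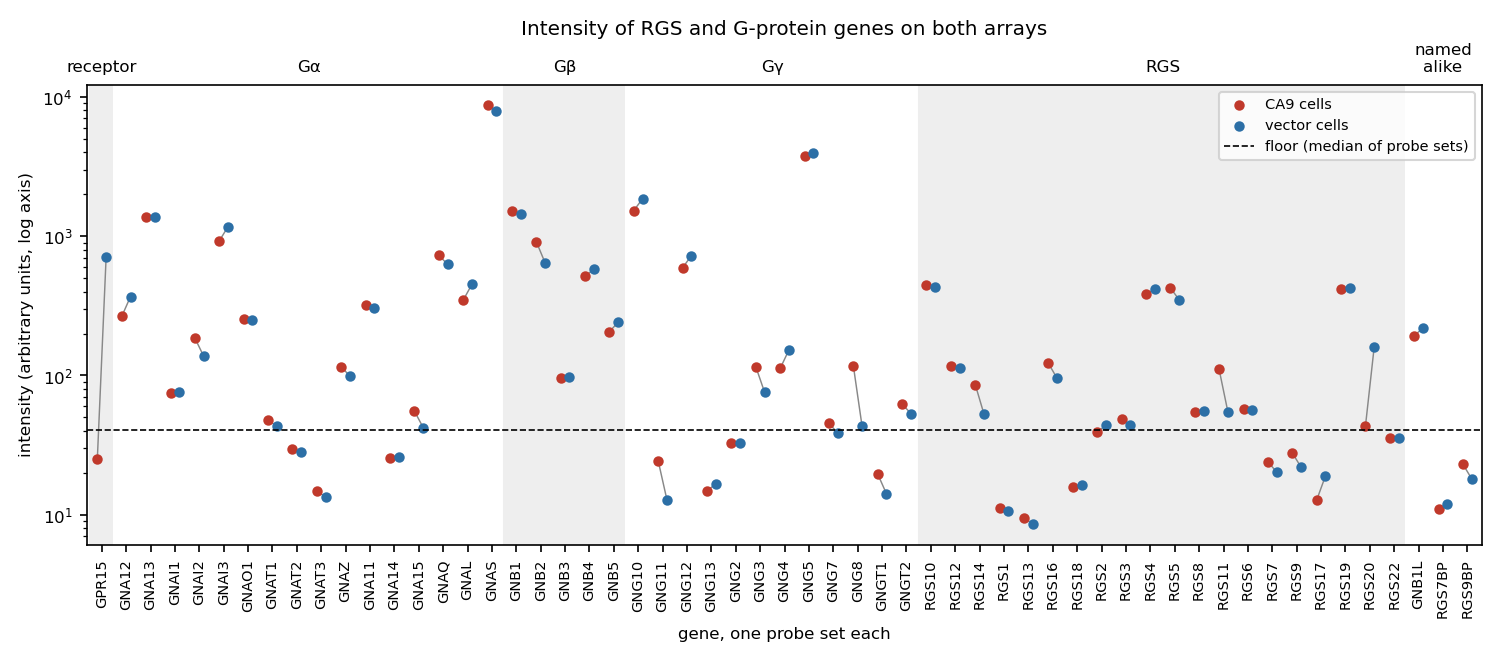
Intensity of each of the 57 genes in CA9 cells (red) and vector cells (blue) on a log axis, with 1 probe set per gene and a grey line joining its values; the dashed line is the floor of 40.8. Most pairs lie almost level, GPR15 and RGS20 drop steeply towards CA9 cells, and GNG8 and RGS11 are higher in it.

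**Figure D2:**
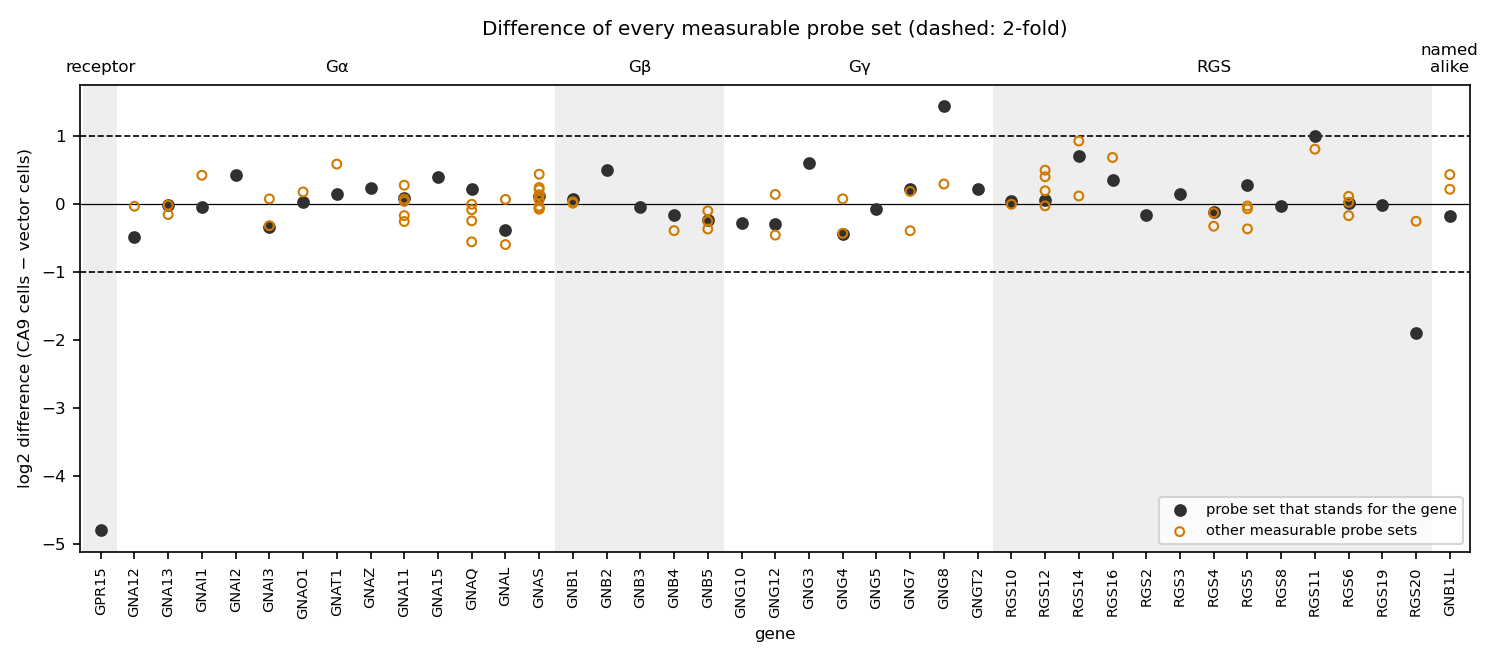
Log2 difference (CA9 line minus vector line) of every measurable probe set, by gene and role; filled points stand for the gene and open points are its other probe sets, and dashed lines mark 2-fold. GPR15 lies at -4.80 and RGS20 at -1.89, and its second probe set at -0.25.

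The promoters that RefSeq lists (build GRCh38.p14, from 250 bases before to 50 bases after the annotated start) are shown for genes on which the results turn. RefSeq's table held a promoter for 49 of the 57 genes. GPR15 and GNG8 are shown as genes with opposite differences, and CPOX because it is the gene next to GPR15 and was lower with it. Letters in capitals mark matches, on either strand, to TATAAA, to the cAMP response element TGACGTCA or to ACGTG, the core of the hypoxia response element. TATAAA occurs in 11.5% of 35116 promoters of this length, TGACGTCA in 1.85% and ACGTG in 21.4%.
GPR15 promoter, chr3:98531728-98532027, plus strand: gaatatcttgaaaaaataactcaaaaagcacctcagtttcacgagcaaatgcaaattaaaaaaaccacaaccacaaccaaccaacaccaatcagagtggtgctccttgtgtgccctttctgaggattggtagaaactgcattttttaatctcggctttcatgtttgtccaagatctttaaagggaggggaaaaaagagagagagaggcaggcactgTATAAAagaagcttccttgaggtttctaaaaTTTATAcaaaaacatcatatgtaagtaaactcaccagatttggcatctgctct
CPOX promoter, chr3:98593562-98593861, minus strand: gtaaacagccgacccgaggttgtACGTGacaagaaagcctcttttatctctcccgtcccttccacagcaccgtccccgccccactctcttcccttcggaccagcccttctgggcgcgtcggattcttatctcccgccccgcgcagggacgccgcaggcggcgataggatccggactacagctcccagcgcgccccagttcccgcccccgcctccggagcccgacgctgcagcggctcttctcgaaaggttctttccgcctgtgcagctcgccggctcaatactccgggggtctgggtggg
GNG8 promoter, chr19:46636153-46636452, minus strand: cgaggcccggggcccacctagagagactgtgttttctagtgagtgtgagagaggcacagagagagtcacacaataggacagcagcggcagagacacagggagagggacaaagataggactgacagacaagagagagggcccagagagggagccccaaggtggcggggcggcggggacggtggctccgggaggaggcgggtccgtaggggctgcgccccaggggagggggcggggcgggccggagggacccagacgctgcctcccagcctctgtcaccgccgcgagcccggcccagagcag
The GPR15 window holds 2 matches to TATAAA, and neither of the other motifs. It has 2 CG pairs and 38.0% G and C, against medians of 14 CG pairs and 58.7% over all promoters. The CPOX window holds 1 match to ACGTG, 31 CG pairs and 66.0% G and C. The GNG8 window holds no match, and it has 19 CG pairs and 68.7% G and C. Thus the promoter of GPR15 is poor in CG pairs and those of CPOX and GNG8 are not. These matches describe the letters only.

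GPR15 was lower in CA9 cells by the widest margin among the 57 genes. Its single probe set had an intensity of 25.3 in CA9 cells and 706 in vector cells, a log2 difference of -4.80. The value in CA9 cells lay below the floor, so GPR15 was at least 17.3-fold lower in CA9 cells. The peptide ligand of the receptor, encoded by GPR15LG, was below the floor in both, with intensities of 19.2 and 23.0 in CA9 cells and 18.8 and 15.4 in vector cells in its 2 probe sets. GPR15 is known from T cells, and 11 T cell and blood markers summed to an intensity of 504 in CA9 cells and 504 in vector cells. Both sums take in markers below the floor, depend on how bright each probe set is, and cover differences in both directions. Of these markers 7 were measurable, 4 were above the floor in both, and none differed by 2-fold. PTPRC, the common leukocyte antigen, had an intensity of 30.1 in CA9 cells, below the floor, and 58.1 in vector cells. Its log2 difference of -0.95 was the lowest of the measurable markers, whose median was 0.29. CD4 was also lower in CA9 cells (-0.16). CD14 (0.63), CD3D (0.37), ITGAM (0.33), CD3G (0.29) and CD8A (0.07) were higher, CD14 and CD8A with vector cells below the floor. CD2, CD3E, ITGA4 and MS4A1 lay below the floor in both. The part of these markers in the difference of GPR15 was not tested.

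The genes on either side of GPR15 on chromosome 3 were lower in CA9 cells as well. This look at neighbours was chosen after the values were seen. In RefSeq's order of protein-coding genes CLDND1 precedes GPR15 and CPOX follows it. CLDND1, a claudin-domain membrane protein, had intensities of 333 in CA9 cells and 1286 in vector cells in 1 probe set (log2 difference -1.95), and 152 and 983 in a second (-2.69). CPOX, coproporphyrinogen oxidase of haem synthesis, had 358 in CA9 cells and 2599 in vector cells, a log2 difference of -2.86. Of the 186 called genes, 171 were protein-coding genes in this order, 81 higher and 90 lower. Only GPR15 among them lay directly between genes called in its own direction. A called gene of the same direction stood on at least 1 side of 13 of the 90 lower genes and of 2 of the 81 higher genes.

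Further from GPR15 the differences were smaller. Among its 20 neighbours on either side 17 were measurable, and 13 of these had negative differences, with a median of -0.37. In the probe sets that stand for these genes, CLDND1 and CPOX were the only ones past 2-fold. Past CPOX, DCBLD2 had a difference of -0.61, CMSS1 of -0.79, TBC1D23 of -0.32 and NIT2 of -0.31. Still further on, LNP1 had 0.21, TRMT10C 0.02 and ZBTB11 -0.50. The 4 probe sets of DCBLD2 ran from -1.32 to 0.06, the lowest with CA9 cells below the floor. Before CLDND1 lie olfactory receptor genes with no measurable probe set, and beyond them CRYBG3 had -0.37, RIOX2 0.02 and DHFR2 0.21. ARL6, also there, had -0.44, with CA9 cells below the floor. The other 3 called genes had no neighbour past 2-fold. Of the measurable neighbours, 21 lay around RGS20 (median -0.10), 26 around GNG8 (median 0.22) and 28 around RGS11 (median 0.12). Around GNG8 19 had positive and 7 negative differences, up to 0.92 in STRN4, so a lean to 1 side was not particular to GPR15. Around RGS20 12 were negative and 8 positive, and around RGS11 13 were negative and 15 positive. Of all 13823 measurable genes of the array, 7322 had negative differences. RGS11 lies near the end of its chromosome's list and has 35 neighbours in this window in place of 40.

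**Figure D3:**
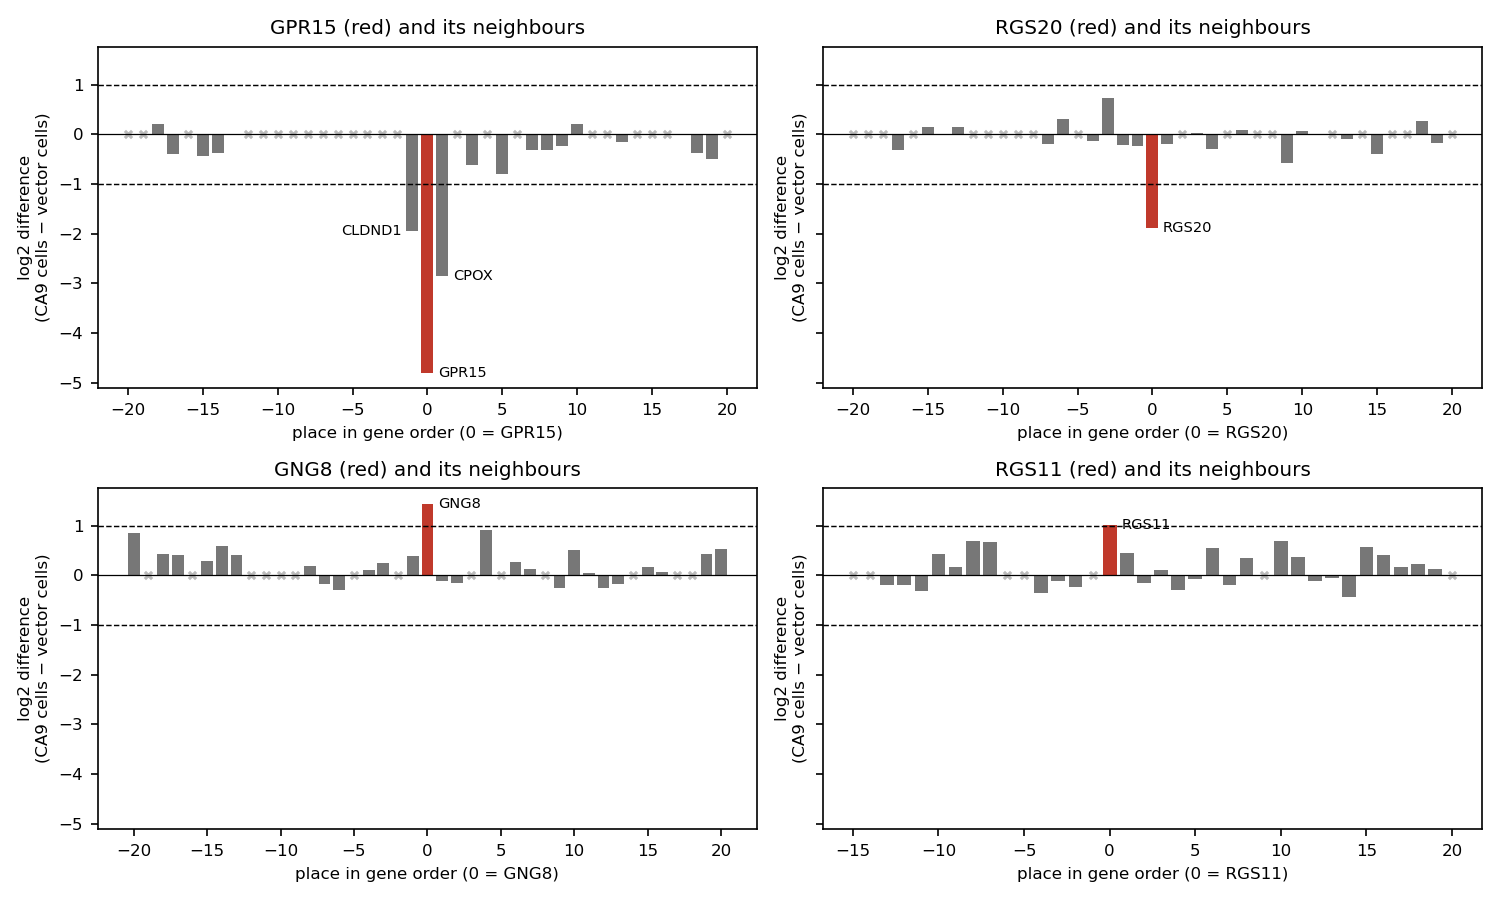
Log2 difference (CA9 line minus vector line) of the protein-coding genes around each of the 4 called genes, in RefSeq order, with the called gene in red at place 0; crosses mark genes that were not measurable or have no single-gene probe set, and dashed lines mark 2-fold. CLDND1 and CPOX flank GPR15 at -1.95 and -2.86, while the neighbours of RGS20, GNG8 and RGS11 stay within 2-fold.

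Among alpha subunits, no gene was called. Of the 16 genes 13 were measurable, 8 with positive and 5 with negative differences, from -0.47 to 0.43. GNAS, the stimulatory alpha subunit that activates adenylyl cyclase, had an intensity of 8685 in CA9 cells and 7944 in vector cells, a difference of 0.13, and its 11 measurable probe sets ran from -0.07 to 0.44. GNAL, the stimulatory subunit of olfactory and striatal neurons, had 347 in CA9 cells and 452 in vector cells (-0.38). Other probe sets of GNAL lay at -0.59 and 0.07, so its probe sets differ in direction.

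The inhibitory family, which restrains adenylyl cyclase, was mixed. GNAI3 had 925 in CA9 cells and 1171 in vector cells (-0.34). GNAI2 had 186 in CA9 cells and 138 in vector cells (0.43), the highest difference among alpha subunits. GNAI1 had 74.9 in CA9 cells and 76.6 in vector cells (-0.03). A second probe set of GNAI1 lay at 0.43, with vector cells below the floor. The inhibitory genes thus lay on both sides of 0. GNAO1, the subunit typical of neurons, had 256 in CA9 cells and 250 in vector cells (0.03), and GNAZ, the subunit that RZ proteins act on, had 116 and 98.6 (0.23). Of the transducins of photoreceptors, GNAT1 had 48.1 in CA9 cells and 43.1 in vector cells, just above the floor. GNAT2 and the taste subunit GNAT3 were below the floor.

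In the Gq/11 family, which activates phospholipase C beta, all 3 measurable genes had positive differences in the probe set that stands for them. GNAQ had 732 in CA9 cells and 628 in vector cells (0.22). The 4 other probe sets of GNAQ ran from -0.55 to 0.00 and averaging all of them gave -0.13, so its direction depended on the probe set. GNA11 had 322 in CA9 cells and 303 in vector cells (0.09), with probe sets from -0.25 to 0.28. GNA15, the blood-cell member, had 55.6 and 42.3 (0.40), close to the floor in vector cells, and GNA14 was below it.

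The G12/13 family had no positive difference. GNA12 had 265 in CA9 cells and 369 in vector cells (-0.47), the lowest difference among alpha subunits, and a second probe set at -0.03. GNA13 had 1375 in CA9 cells and 1383 in vector cells (-0.01). Its 3 probe sets lay between -0.15 and -0.01.

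All 5 beta subunits were measurable and none was called. GNB1 had an intensity of 1524 in CA9 cells and 1447 in vector cells, and its 3 probe sets lay between 0.02 and 0.08. GNB2 had 914 in CA9 cells and 645 in vector cells (0.50), in a single probe set named _x_at, a kind that can detect related transcripts. The probe sets that stand for GNAS and GNA11 are of this kind too. GNB4 had 517 in CA9 cells and 578 in vector cells (-0.16), with a second probe set at -0.39. GNB2 thus had the highest difference and GNB5 the lowest among beta subunits. GNB5, the partner without which R7 proteins are unstable, had 207 in CA9 cells and 241 in vector cells (-0.22). All 4 of its measurable probe sets were below 0, from -0.36 to -0.10. GNB3, a beta subunit of cone photoreceptors, had 95.5 and 98.1 (-0.04). Of the like-named genes, GNB1L had 194 in CA9 cells and 218 in vector cells (-0.17), but its other probe sets lay at 0.22 and 0.44. RGS7BP and RGS9BP were below the floor.

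Among gamma subunits, GNG8 was the called gene. GNG8, a gamma subunit best known from olfactory and vomeronasal neurons, had 118 in CA9 cells and 43.1 in vector cells, a log2 difference of 1.45 or 2.73-fold. The value in vector cells lay just above the floor. The second probe set of GNG8 had 42.9 in CA9 cells and 34.9 in vector cells, a value below the floor, and counts as at least 1.05-fold higher. Its difference as deposited was 0.30, and the average of both probe sets was 0.87, short of 2-fold. The call therefore rests on 1 probe set. Of the 12 gamma genes 8 were measurable, 4 on each side of 0.

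Gamma subunits that many cell types use had small differences. GNG5 had 3761 in CA9 cells and 3932 in vector cells (-0.06). GNG10 had 1529 in CA9 cells and 1860 in vector cells (-0.28), and GNG12 had 593 and 726 (-0.29), with other probe sets at -0.45 and 0.14. All of these lay within 2-fold. The neuronal gamma subunit GNG3 had 116 in CA9 cells and 76.0 in vector cells (0.61) in its 1 probe set. GNG4, also of neurons, had 112 in CA9 cells and 153 in vector cells (-0.44). Its other measurable probe sets lay at 0.08 and -0.43, the latter with CA9 cells below the floor. These 2 neuronal subunits thus lay on opposite sides of 0. GNG11 had 24.3 in CA9 cells and 12.7 in vector cells, both below the floor, so that its difference of 0.93 was not counted. GNG2, GNG13 and GNGT1 were below the floor too.

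RGS20 and RGS11 were the called RGS genes, in opposite directions, and 13 of the 20 RGS genes were measurable. RGS20, an RZ protein that acts on Gz and other inhibitory alpha subunits, had 43.2 in CA9 cells and 161 in vector cells, a log2 difference of -1.89 or 3.72-fold. Its second probe set had 70.4 in CA9 cells and 83.7 in vector cells (-0.25). The probe sets share a direction but lie 1.64 apart, the widest range among the 22 genes with several probe sets above the floor on both arrays. Their average was -1.07. Only the first passed 2-fold, and it is the brighter over both arrays only through its value in vector cells. The second lay within the pooled SD of 0.29 between probe sets. Of the other RZ genes, RGS19 had 420 in CA9 cells and 422 in vector cells (-0.01), and RGS17 was below the floor.

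In the R7 subfamily, whose members pair with the beta subunit GNB5, RGS11 was higher. RGS11, known from retinal bipolar cells and brain, had 111 in CA9 cells and 54.8 in vector cells, a log2 difference of 1.01, in a probe set named _s_at. A second probe set had 58.1 in CA9 cells and 33.1 in vector cells, a value below the floor, and counts as at least 1.42-fold higher. The call only just passed 2-fold and the difference was 0.95 once the array medians were equalised. RGS6 had 57.6 in CA9 cells and 56.9 in vector cells (0.02), with probe sets from -0.17 to 0.12. RGS7 and RGS9 were below the floor, and GNB5 had no positive difference in its measurable probe sets.

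All 3 R12 genes were measurable and had positive differences short of 2-fold in the probe set that stands for them. RGS14, which also binds inhibitory alpha subunits in their GDP form, had 86.1 in CA9 cells and 52.7 in vector cells (0.71). Another probe set lay at 0.12. The remaining one had 65.4 in CA9 cells and 34.3 in vector cells, a value below the floor, and counts as at least 1.60-fold higher. RGS10 had 443 in CA9 cells and 431 in vector cells (0.04), and RGS12 had 118 and 113 (0.06), with measurable probe sets from -0.02 to 0.50. Once the array medians were equalised, RGS10 lay at -0.02 and RGS12 at 0.00, while RGS14 lay at 0.65.

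In the R4 subfamily, the small RGS proteins, 6 of 9 genes were measurable and none was called. RGS16 had 122 in CA9 cells and 95.2 in vector cells (0.36), and a second probe set at 0.69. RGS5, a marker of pericytes, had 426 in CA9 cells and 350 in vector cells (0.28), but 3 other probe sets lay from -0.36 to -0.03. RGS4, a neuronal member, had 385 in CA9 cells and 416 in vector cells (-0.11), and all 3 of its probe sets were lower in CA9 cells, down to -0.32. Within R4, then, RGS16 was higher and RGS4 lower in every measurable probe set, and RGS5 was mixed. RGS2, which acts mainly on Gq, had 39.4 in CA9 cells and 43.8 in vector cells, close to the floor. RGS1, RGS13 and RGS18, which are typical of blood cells, had intensities of at most 16.2 and lay below the floor, as did RGS22.

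The 16 genes that were not measurable had a higher array between 9.56 and 35.6. Of the 41 measurable genes, 22 had several probe sets above the floor on both arrays, and in 11 of these no probe sets lay on opposite sides of 0. RGS10 and GNAQ each had a probe set with the same deposited value on both arrays, as did GNG2 and RGS22 below the floor.

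The wider pathway held no called gene in the probe sets that stand for its genes. A list of other genes of G-protein signalling had 58 genes with a single-gene probe set, of which 49 were measurable, 24 with positive and 25 with negative differences (median -0.03, the same as over all measurable genes). In each of its groups the differences stayed between -0.86 and 0.74. Of the adenylyl cyclases 6 of 8 measurable genes had positive differences in the probe set that stands for the gene. Among all measurable genes 45.9% did. ADCY1 was the cyclase farthest from 0, with 91.7 in CA9 cells and 151 in vector cells (-0.71). Its probe sets ran up to 0.75, the highest with vector cells below the floor. ADCY5 had 70.4 and 55.7 (0.34). The directions depended on the probe set. Averaged over all probe sets of a gene, ADCY1 lay at 0.18, and ADCY3 (-0.06), ADCY7 (-0.13) and ADCY9 (-0.04) turned negative. ADCY4, ADCY5 and ADCY6 stayed positive and ADCY2 negative. Of the phosphodiesterases that break down cAMP 6 of 7 had negative differences in the probe set that stands for the gene. Among all 13823 measurable genes 7322 did. PDE3A (-0.09), PDE4A (-0.16) and PDE8A (-0.19) were negative but within the pooled SD of 0.29 between probe sets. The 4 measurable probe sets of PDE4A ran up to 1.12, the highest with vector cells below the floor, and the average over all its probe sets was 0.42. PDE3B had 71.5 in CA9 cells and 115 in vector cells (-0.69), with its probe sets from -1.17 to -0.27, and PDE7A had 70.9 and 105 (-0.57).

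Among the kinases that cAMP activates, the catalytic subunit genes differed in direction. PRKACA had 265 in CA9 cells and 158 in vector cells (0.74), while PRKACB had 315 and 451 (-0.52). Of the receptor kinases that begin desensitisation, GRK3 had 60.7 in CA9 cells and 109 in vector cells (-0.84), and GRK1 had 57.3 and 43.3 (0.40). Proteins with an RGS domain outside the RGS names included SNX13, with 58.4 in CA9 cells and 106 in vector cells (-0.86), and AXIN2, with 116 and 80.4 (0.53). SNX13 had the lowest difference of the whole list. PDCL, a chaperone in the assembly of the beta-gamma dimer, had 95.7 in CA9 cells and 138 in vector cells (-0.53), and RASD1 had 132 and 95.2 (0.47). The phospholipases PLCB3 and PLCB2 lay at 0.23 and -0.09.

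**Figure D4:**
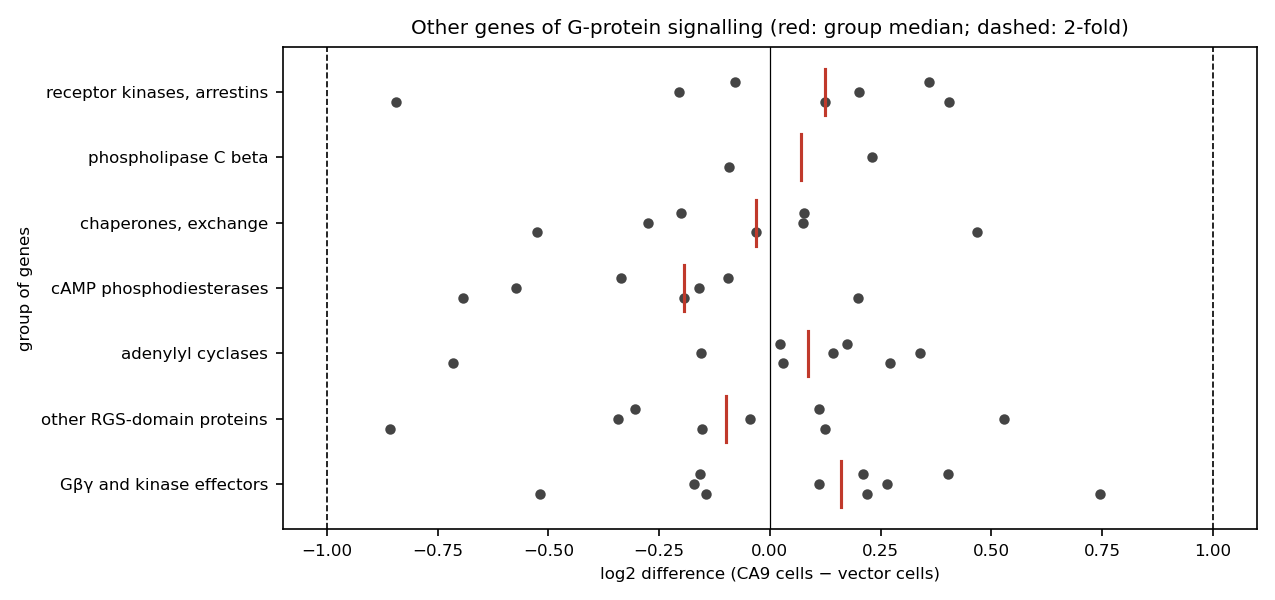
Log2 difference (CA9 line minus vector line) of the 49 measurable other genes of G-protein signalling, 1 point per gene, by group; red bars are group medians and dashed lines mark 2-fold. No point passes 2-fold, and the phosphodiesterases lie mostly left of 0.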

How the data were processed

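The deposited table gives intensities, 1 for each array at each probe set; RMA is the authors' method, per the submitters' processing notes, but its version, background setting and probe definitions are not given in the sources used here. The linear scale was read from the values. Intensities were put on log2 without a pseudocount. Probe sets were named through a platform annotation, using the 41097 with a single symbol; all 150 member probe sets matched RefSeq gene identifiers of assembly GRCh38.p14, and 3 probe sets that share a symbol with another gene were left out. Neighbours were 20 protein-coding genes on each side in RefSeq order. Genes were called at 2-fold. The genes named include all genes with a called probe set, and in each role the 3 brightest and the 2 farthest from 0 either way. In each group of other pathway genes they include the 2 farthest from 0, as judged by the probe set that stands for the gene. Further members were named outside this rule, whereas GNG7, GNGT2, RGS3 and RGS8 were measurable and not described. PDE4A and the cyclases and phosphodiesterases named beyond the 2 farthest from 0 were named after their values were seen. The members and lists were chosen with earlier results of these data known. Fibroblast and endothelial markers, 8 measurable of 9, held no called gene. The 2-fold rule was tested on simulated data, which cannot supply the spread between cultures that is unknown here. The number of arrays limits the precision. Python 3.11.15, numpy 2.4.6, pandas 2.3.3, statsmodels 0.14.6 and matplotlib 3.10.9 were used.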

Additional observations from a re-analysis of the deposited data

Results flagged for a closer look

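The bacterial spike-ins added for hybridisation, which enter no comparison of genes above, had a median log2 difference of 0.41, CA9 cells minus vector cells.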

How the results depend on the processing

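The lower genes numbered 2 under all 10 alternatives, and their lower probe sets 2 under all 8 run on probe sets. GPR15 has 1 probe set, and no alternative took the second probe set of RGS20 (-0.25) alone. The higher genes numbered 1 in place of 2 after equalising the array medians, after quantile normalization, after subtraction of a loess trend, with _x_at and _s_at probe sets left out, and with a pseudocount of 16. They numbered 0 when each gene's probe sets were averaged, and 4 at a fold of 1.5. The higher probe sets numbered 1 under the same 5 settings that gave 1 higher gene. RGS11 was the gene lost in each case, at log2 differences from 0.67 to 0.99, and the average also took GNG8 to 0.87. Setting the medians equal moves every difference by -0.06 and the median of the 41 genes to -0.03; its range over the alternatives was -0.03 to 0.09. Among the other genes of G-protein signalling 1 was called lower with _x_at and _s_at probe sets left out. PDE3B alone on that list had a measurable probe set lower by more than 2-fold (-1.17). No paired analysis was possible because each derivative has 1 array. Values near the floor, such as those of GNG8 in vector cells and RGS20 in CA9 cells, are limited by signal over background.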
